A study of Mus musculus with 6 samples.

Results

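The genes described here encode 9 nuclear receptors that sense lipids, foreign compounds or hormones, together with 1 corepressor. They were chosen by name, with earlier results of these data known, and make up 10 of the 23284 genes counted. The receptors were PPARα, PPARγ and PPARδ (Ppara, Pparg, Ppard), PXR (Nr1i2), CAR (Nr1i3), LXRβ (Nr1h2), ERRα (Esrra), TRβ (Thrb) and RORα (Rora), and the corepressor was NCoR1 (Ncor1). All 10 passed the filter on low counts.

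Liver RNA-seq compared mice expressing FXR-WT with mice expressing the phosphorylation-defective mutant Y67F-FXR, with 3 livers in each group. Every mouse was a male carrying floxed FXR alleles, injected at 8 weeks of age with AAV8 vectors. In both groups one vector encoded Cre recombinase, which deletes mouse FXR, and a second encoded FXR-WT or Y67F-FXR, and the methods describe the flag-tagged FXR constructs as human without saying so of this vector. Both were driven by the TBG promoter, which is active in hepatocytes, so that other liver cells kept their own FXR. Liver was collected after 4 weeks, at the end of 6 h on chow containing 0.5% cholic acid (CA), which activates FXR. The comparison therefore contrasts the mutant with FXR-WT under bile acid load, and no group without the load or with intact mouse FXR was analysed here.

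Nuclear receptors are transcription factors that bind small lipophilic ligands and then exchange corepressors for coactivators on DNA. Most of those described here bind as heterodimers with RXR, the partner that FXR also uses, to repeats of a short half-site. PPARα drives hepatic fatty acid oxidation in fasting, PXR and CAR drive detoxification, LXRs respond to oxysterols, and NCoR1 holds a histone deacetylase complex on receptors that lack an activating ligand. Levels are given below in CPM, read counts scaled to library size with TMM factors. Calls needed an adjusted p under 0.05 and more than a 1.5-fold difference. Adjusted p-values are those of the edgeR quasi-likelihood test after Benjamini-Hochberg adjustment over 12453 tested genes, marked edgeR below.

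None of the 10 genes was called, where 0.972% of all tested genes were. By direction, 0.546% of tested genes were called higher in Y67F-FXR and 0.426% lower. At an unadjusted p under 0.05 only Ppara passed, 1 of 10, beside 13.4% of all tested genes (6.75% higher and 6.67% lower). DESeq2 and edgeR's likelihood ratio test, which called 3.44% and 3.59% of all tested genes, also called 0 of the 10. The fitted values were higher in Y67F-FXR for 8 genes and lower for Pparg and Thrb, and 52.0% of all tested genes were fitted higher. The median log2 fold change of the 10 was 0.17, beside 0.012 over all tested genes. It was 0.10 with library totals, and with 1 liver left out it ranged from 0.11 (without Y67F-FXR replicate 1) to 0.23 (without FXR-WT replicate 3). In Ppara and Nr1h2 the 3 Y67F-FXR livers all lay above the 3 FXR-WT livers, 2 of 10 genes beside 20.6% of all tested genes that did not overlap (10.2% higher and 10.5% lower). The shares that passed or did not overlap were near those of all genes.

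**Figure D1:**
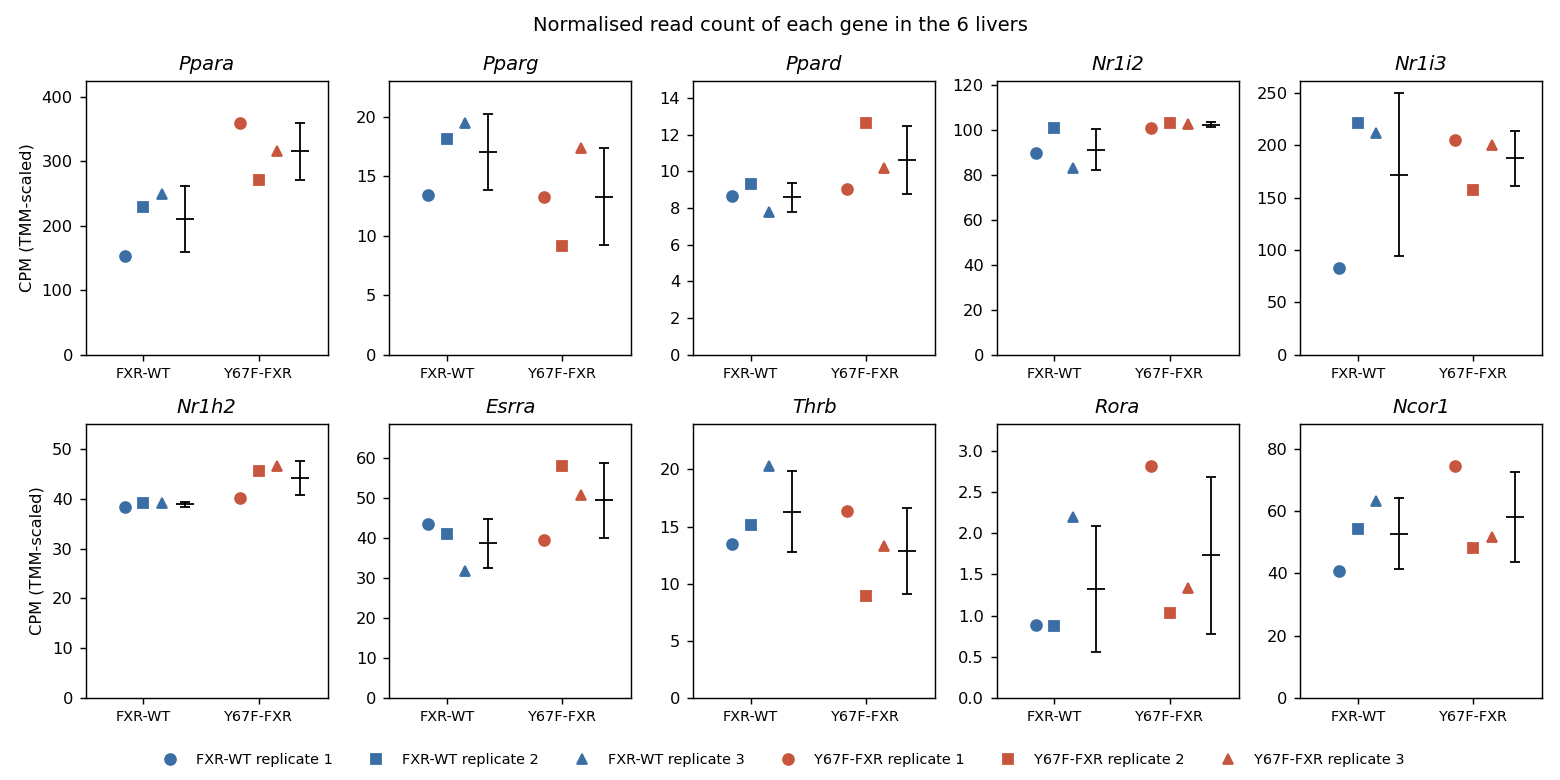
TMM-scaled CPM (y axis, from 0, with its own scale in each panel) of each of the 10 genes in the 3 FXR-WT (blue) and 3 Y67F-FXR (red) livers, with the mean and SD of each group as a bar beside the points and a marker shape for each replicate number. The groups are apart only for Ppara and Nr1h2, and FXR-WT replicate 1 has the lowest Ppara, 153 CPM, and the lowest Nr1i3, 82.7 CPM.

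Library totals ran from 19551113 to 22053320 reads, and the 10 most abundant genes took 18.4% to 20.4% of them. Libraries differed by gene length: for gene models of at most 1598 bp, the median deviation from the mean of the 6 livers ran from -0.20 (Y67F-FXR replicate 1) to 0.22 (Y67F-FXR replicate 2) on the log2 scale. For models of at least 4729 bp it ran the other way, from -0.17 in Y67F-FXR replicate 2 to 0.19 in Y67F-FXR replicate 1. Ppara, Thrb and Ncor1 have long models, so their values are also given below from a fit with length offsets. Nr1h4, the FXR gene, stood at 186 ± 30.2 CPM with FXR-WT and at 175 ± 9.84 CPM with Y67F-FXR (mean ± SD, n = 3), and its counts do not separate the gene of the mouse from the transgene. Labelled replicates are separate samples, one library each, and p-values measure the spread between them.

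Per kilobase of gene model, a scale on which genes can be compared, the xenobiotic receptors and PPARα stood highest and RORα lowest. The median over the 6 livers was 143 CPM per kb for Nr1i3, 39.9 for Nr1i2, 34.6 for Ppara, 20.3 for Nr1h2 and 18.8 for Esrra. It was 7.75 for Pparg, 4.75 for Ncor1, 2.85 for Ppard, 2.18 for Thrb and 0.722 for Rora. Of neighbours in this order, only Nr1i3 with Nr1i2, and Esrra with Pparg, had ranges over the 6 livers that did not overlap. The order depends on the gene models used for counting. The Rora model was 1644 bp long, 15.1% of its longest coding transcript in GENCODE M21, and the Nr1i3 model 1414 bp, 47.4% of its longest, whereas the Ppara model of 7528 bp exceeded its longest annotated transcript. Without division by length, Ppara ranked first and Nr1i3 second.

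**Figure D2:**
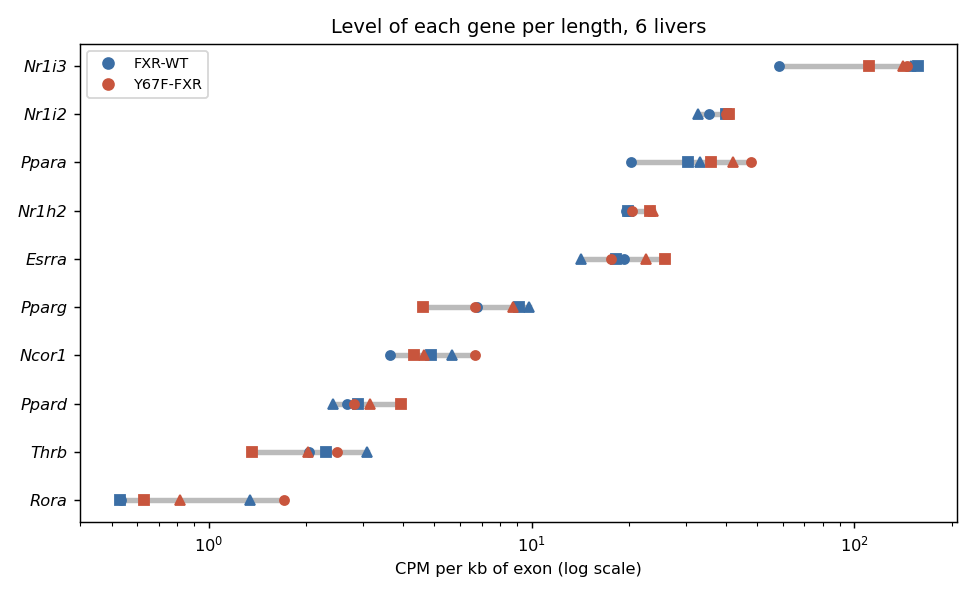
Level of each gene in CPM per kb of gene model (x axis, log scale) in the 6 livers, FXR-WT blue and Y67F-FXR red, with a grey line over the range and a marker shape for each replicate number. Nr1i3 had a median of 143 CPM per kb and Rora 0.722, and most neighbouring ranges overlap.

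Ppara, the fatty acid sensor of hepatocytes (mm9 chromosome 15, 85565994 to 85637281, plus strand), had 153, 229 and 249.9 CPM in FXR-WT replicates 1 to 3 and 359.9, 270.4 and 316 CPM in Y67F-FXR replicates 1 to 3. Each mutant liver was thus above each FXR-WT liver, and the mean went from 211 ± 51.0 to 315 ± 44.7 CPM (SD, n = 3). The log2 fold change was 0.58 (standard error 0.202, 95% interval 0.12 to 1.05), with an unadjusted p of 0.0204 and an adjusted p of 0.255 (edgeR), so that the difference did not pass over all genes. With length offsets the value was 0.57 and the adjusted p 0.0742 (edgeR), and DESeq2 gave an adjusted p of 0.123. Over all alternatives, each liver left out included, the log2 fold change stayed between 0.39, without FXR-WT replicate 1, and 0.72, without FXR-WT replicate 3.

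Pparg, the adipocyte regulator of lipid storage that the liver holds at a lower level (chromosome 6, 115311239 to 115440419, plus strand), had 13.4, 18.1 and 19.5 CPM in FXR-WT and 13.3, 9.16 and 17.3 CPM in Y67F-FXR livers. The groups overlapped, and the log2 fold change was -0.36 (standard error 0.246, 95% interval -0.93 to 0.21, adjusted p = 0.616, edgeR). It was -0.60 without Y67F-FXR replicate 3 and -0.17 without Y67F-FXR replicate 2. Macrophages and stellate cells also express Pparg, and in whole liver fewer cells of a type and less RNA per cell cannot be told apart. Ppard, the most widely expressed PPAR (chromosome 17, 28369699 to 28438414, plus strand), had 8.65, 9.31 and 7.78 CPM in FXR-WT and 9.04, 12.7 and 10.2 CPM in Y67F-FXR livers. Only Y67F-FXR replicate 1 lay within the FXR-WT range, and the fit gave 0.31 on the log2 scale (standard error 0.171, 95% interval -0.088 to 0.70, adjusted p = 0.511, edgeR), but 0.15 without Y67F-FXR replicate 2.

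The balance between the PPARs can be read within each liver, where library size cancels. The length trend between libraries does not cancel, since the Ppara model has 7528 bp and the Pparg model 1984 bp. No ratio was corrected for it. The size of the ratio also depends on the gene models, at 220.6% of the longest coding transcript for Ppara and 93.4% for Pparg. Ppara exceeded Pparg per kilobase 3.00, 3.33 and 3.38 times in the FXR-WT livers and 7.15, 7.78 and 4.80 times in the Y67F-FXR livers. The groups did not overlap, and the geometric mean went from 3.23 to 6.44, a log2 difference of 0.99. The exact two-sided permutation test gave p = 0.10, the smallest that 3 livers against 3 can give, and 0.20 after adjustment over the 6 ratios reported. Ppara over Ppard stood at 7.56, 10.5 and 13.7 in FXR-WT livers. In Y67F-FXR livers it stood at 17.0, 9.13 and 13.3, with overlap (exact permutation p = 0.50). Esrra over Esrrg, another of the 6, overlapped too (exact permutation p = 0.70). Of the summed PPAR level per kilobase, Ppara took 68.2%, 71.7% and 73.1% in FXR-WT and 83.4%, 80.8% and 77.9% in Y67F-FXR livers. Pparg took 21.5% to 22.7% in FXR-WT and 10.4% to 16.2% in Y67F-FXR livers. Ppard took 5.32% to 9.02% in FXR-WT and 4.90% to 8.84% in Y67F-FXR livers, with overlap. The ratios were chosen after the values of the single genes were seen.

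Promoters were searched on both strands for the AGGTCA half-site, for its direct repeat with a spacing of 1 base (DR1, AGGNCANAGGNCA, the form PPAR-RXR binds), for the repeat with a spacing of 4 (DR4, AGGNCANNNNAGGNCA, the form of LXR-RXR and TR-RXR), and for the inverted repeat IR1 of FXR-RXR (AGGNCANTGNCCT). Windows were 250 bases before to 50 after each RefSeq start on GRCm38.p6, a build later than that of the counts. All 10 genes had at least 1 promoter in the table. The half-site was in 16.3% of 32851 promoters and, among the 10 genes, in those of Pparg and Thrb, 2 of 10. Of the targets with a promoter there, it was in 8 of 24 for PPARα, 0 of 9 for LXR and 3 of 12 for CAR. The percentages count promoters, whereas the other values count genes with a match at any start. Pparg has 3 starts and Thrb 2, so the 2 scales are not alike. DR1 was in 0.381% of all promoters and in none of the 10 genes, DR4 in 0.253% and in Esrra, and IR1 in 0.0883% and in none of the 10. A DR1 or DR4 in which either N at the fourth place is a T also counts as a match of the single site.
The promoters of Ppara and of 2 of the 3 Pparg starts are shown because the balance of these receptors differed most between the groups, and that of Fabp1 because it alone of the PPARα target promoters held a DR1. Capitals mark the half-site in Pparg and, on the opposite strand, the DR1 in Fabp1, and Ppara has no match.
Ppara, chr15:85735526-85735825, plus strand: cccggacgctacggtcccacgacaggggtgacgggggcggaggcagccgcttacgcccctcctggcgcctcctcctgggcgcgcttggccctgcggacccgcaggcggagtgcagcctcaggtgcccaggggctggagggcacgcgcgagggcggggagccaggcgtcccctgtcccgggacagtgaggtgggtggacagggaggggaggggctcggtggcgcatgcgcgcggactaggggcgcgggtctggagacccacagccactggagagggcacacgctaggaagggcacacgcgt
Pparg, chr6:115360894-115361193, plus strand: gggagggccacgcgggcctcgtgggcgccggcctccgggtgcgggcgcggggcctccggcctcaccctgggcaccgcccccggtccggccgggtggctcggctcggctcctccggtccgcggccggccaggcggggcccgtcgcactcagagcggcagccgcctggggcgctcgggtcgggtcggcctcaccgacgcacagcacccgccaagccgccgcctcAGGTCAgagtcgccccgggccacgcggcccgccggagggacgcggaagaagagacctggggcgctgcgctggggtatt
Pparg, chr6:115362099-115362398, plus strand: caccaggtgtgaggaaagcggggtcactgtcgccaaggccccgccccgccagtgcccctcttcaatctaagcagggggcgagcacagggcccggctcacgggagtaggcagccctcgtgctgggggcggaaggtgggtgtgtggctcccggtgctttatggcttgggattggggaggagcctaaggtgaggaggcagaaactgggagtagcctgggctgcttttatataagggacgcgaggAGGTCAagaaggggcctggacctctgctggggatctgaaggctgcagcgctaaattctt
Fabp1, chr6:71199629-71199928, plus strand: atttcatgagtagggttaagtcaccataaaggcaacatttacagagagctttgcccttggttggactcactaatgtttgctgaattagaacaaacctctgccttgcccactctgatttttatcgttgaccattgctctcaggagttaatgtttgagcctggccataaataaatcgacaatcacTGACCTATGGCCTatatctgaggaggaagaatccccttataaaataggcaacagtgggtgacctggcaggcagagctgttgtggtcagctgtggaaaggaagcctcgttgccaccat
In the Pparg windows the half-site lay 28 and 9 bases before the start, and in Fabp1 the DR1 lay 67 bases before it. Fabp1, a liver fatty acid carrier named here for its promoter, stood at 5037 ± 381 CPM with FXR-WT and at 5674 ± 359.7 CPM with Y67F-FXR (mean ± SD, n = 3), a log2 fold change of 0.17.

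PPARα targets covered the burning, storage and transport of fatty acids. Of 33 targets, all tested, 4 were called and all 4 were higher, where 0.546% of all tested genes were called higher. By sign alone 32 were fitted higher and 1 lower, and the list median was 0.45 on the log2 scale. At an unadjusted p under 0.05, 18 were higher and 1 lower, and 22 had all mutant livers above all FXR-WT livers, beside 10.2% of all tested genes. The target lists, this one included, were drawn up with earlier results of these data known. They are therefore not independent evidence of their direction.

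The called PPARα targets were 3 enzymes of fatty acid handling and a lipid droplet protein. Acot1, an acyl-CoA thioesterase, had 51.2, 65.7 and 59.5 CPM in FXR-WT and 152, 176 and 137 CPM in Y67F-FXR livers, and it rose 2.64-fold (log2 fold change 1.399, standard error 0.149, adjusted p = 0.0139, edgeR). Acot2, its mitochondrial relative, rose 2.37-fold (adjusted p = 0.0307, edgeR), from 7.57 ± 1.56 to 18.0 ± 1.99 CPM (SD, n = 3). Acaa1b, a peroxisomal thiolase, had 1183, 1210 and 1233 CPM in FXR-WT and 2225, 2433 and 2236 CPM in Y67F-FXR livers and rose 1.90-fold (adjusted p = 0.0175, edgeR). Plin2, which coats lipid droplets, rose 1.81-fold (adjusted p = 0.0353, edgeR), from 492 ± 19.5 to 890 ± 121 CPM (SD, n = 3). The highest fitted target, Acot3, had 11.6, 49.9 and 31.6 CPM in FXR-WT and 139, 145 and 109 CPM in Y67F-FXR livers, a log2 fold change of 2.08 that did not pass (adjusted p = 0.0909, edgeR). Acot1, Acot2 and Acot3 are close paralogs, and reads that map to several of them were not counted.

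The single PPARα target with a lower fit was Fgf21, a fasting hormone of the liver. It had 63.0, 14.6 and 14.6 CPM in FXR-WT and 8.70, 12.6 and 8.35 CPM in Y67F-FXR livers, so that FXR-WT replicate 1 stood far above the other two. Its log2 fold change was -1.64 (adjusted p = 0.256, edgeR), and -0.56 without FXR-WT replicate 1. That same liver had the lowest Ppara of the 6.

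Of 10 PPARγ targets 8 were tested and 1, Plin4, was called higher, where 0.546% of all tested genes were. Plin4, a lipid droplet protein of fat-storing cells, had 4.11, 10.4 and 7.73 CPM in FXR-WT and 50.5, 35.9 and 58.6 CPM in Y67F-FXR livers. It rose 6.51-fold (log2 fold change 2.70, standard error 0.332, adjusted p = 0.0175, edgeR), and part of its exons is shared with Hdgfrp2. Mogat1, a monoacylglycerol acyltransferase, was fitted at 1.12 on the log2 scale (adjusted p = 0.162, edgeR), and Lpl, the lipoprotein lipase, the lowest of the list at -0.84 (adjusted p = 0.21, edgeR), or -0.53 without FXR-WT replicate 1. The list median was 0.57, but 0.16 without FXR-WT replicate 1 and 1.33 without FXR-WT replicate 2. The adipocyte markers Adipoq, Plin1 and Lep stood at or below 0.242 CPM in every liver, and Lep had no read. Cfd, the fourth adipocyte marker and also on this list, had 0.68, 6.55 and 1.77 CPM in FXR-WT and 3.50, 1.80 and 5.39 CPM in Y67F-FXR livers, with overlap, and a log2 fold change of 0.26. The part of adipocytes in the Plin4 value was not tested.

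Nr1i2, which encodes PXR, the receptor for drugs and secondary bile acids (chromosome 16, 38248435 to 38294910, minus strand), had 89.6, 101 and 83.0 CPM in FXR-WT and 101, 103 and 102 CPM in Y67F-FXR livers. The mutant livers were nearly equal, with a coefficient of variation of 1.08%, and FXR-WT replicate 2 reached their lower edge. For the group difference the log2 fold change was 0.16 (standard error 0.118, 95% interval -0.11 to 0.44, adjusted p = 0.638, edgeR), and 0.10 without FXR-WT replicate 3. Of 10 PXR targets 8 were tested, 0 were called, and 0 reached an unadjusted p under 0.05, and DESeq2 called 0. Their median log2 fold change was 0.16, from Cyp3a25, a drug-metabolizing P450, at 0.42 down to Cyp3a13 at -0.067 among those with at least 1 CPM, and Ces2a, a carboxylesterase, was at 0.27. Single livers moved these values, with the median at 0.12 and Cyp3a25 at 0.21 without FXR-WT replicate 1, the median at 0.27 and Cyp3a25 at 0.67 without FXR-WT replicate 2, and Ces2a at 0.15 without FXR-WT replicate 3. Cyp3a13 turned to 0.058 without FXR-WT replicate 1.

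Nr1i3, which encodes CAR, the phenobarbital-responsive receptor (chromosome 1, 173144101 to 173148976, plus strand), had 82.7, 222 and 212 CPM in FXR-WT and 205, 157 and 200.4 CPM in Y67F-FXR livers. FXR-WT replicate 1 was well below the other 5 livers, and the coefficient of variation was 45.1% in FXR-WT and 14.1% in Y67F-FXR. The log2 fold change was 0.12 (standard error 0.335, 95% interval -0.65 to 0.90, adjusted p = 0.928, edgeR), and it turned to -0.21 without FXR-WT replicate 1. The gene shares exon bases with Tomm40l, and reads on both were not counted. The ratio of Nr1i2 to Nr1i3 per kilobase had geometric means of 0.323 and 0.307 and did not separate the groups (exact permutation p = 1.0). It was 0.606, 0.255 and 0.219 in FXR-WT and 0.275, 0.367 and 0.286 in Y67F-FXR livers. FXR-WT replicate 1 thus held the highest ratio, and the other FXR-WT livers lay below every Y67F-FXR liver.

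Although Nr1i3 itself was not called, 2 of the 11 tested CAR targets were, both higher, where 0.546% of all tested genes were called higher. Por, which passes electrons to all microsomal P450s, had 449, 608 and 468 CPM in FXR-WT and 1015, 1326 and 1151 CPM in Y67F-FXR livers, a 2.29-fold rise (log2 fold change 1.20, standard error 0.168, adjusted p = 0.0244, edgeR). Alas1, the rate-limiting enzyme of heme synthesis, had 792, 860.0 and 723 CPM in FXR-WT and 1377, 1329 and 1531 CPM in Y67F-FXR livers and rose 1.78-fold (adjusted p = 0.0333, edgeR). Gadd45b, a stress-induced coactivator of CAR, had the highest fit, 1.93, from 1.46 ± 0.680 to 5.58 ± 3.54 CPM (SD, n = 3, adjusted p = 0.139, edgeR), or 1.28 without Y67F-FXR replicate 2. Gstm3, a glutathione transferase, had the lowest, -0.27, but -0.045 without FXR-WT replicate 1. The median was 0.55, and 9 of 11 were fitted higher. Other receptors also drive Por and Alas1, and the list does not separate their inputs.

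**Figure D3:**
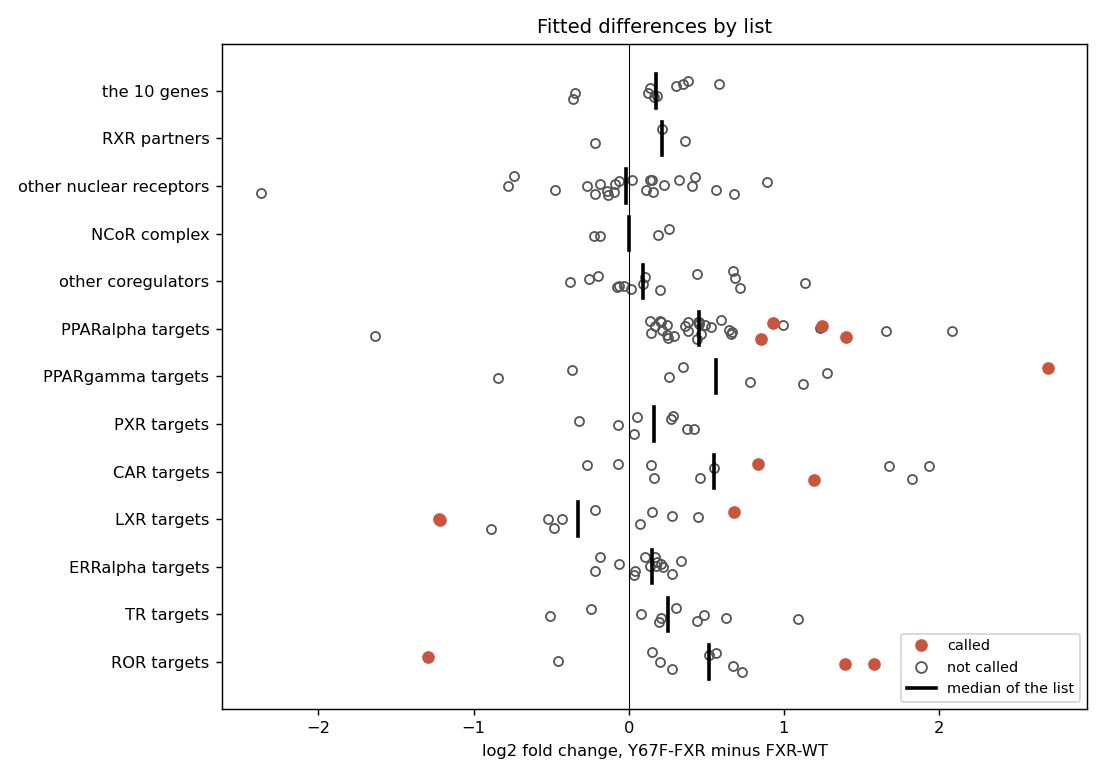
Fitted log2 fold change (x axis, Y67F-FXR minus FXR-WT) of every tested gene of each list, one row per list, with called genes filled in red, others open, and the list median as a black bar. Called genes appear only among the targets of PPARα, PPARγ, CAR, LXR and ROR, and the 10 receptor and corepressor genes of the top row lie between -0.36 and 0.58.

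Nr1h2, which encodes LXRβ, the more widely expressed of the oxysterol receptors (chromosome 7, 51805003 to 51809293, minus strand), had 38.4, 39.1 and 39.2 CPM in FXR-WT and 40.3, 45.7 and 46.6 CPM in Y67F-FXR livers. The groups did not overlap, although the lowest mutant liver was close to the highest FXR-WT liver. Its fitted log2 fold change was 0.18 (standard error 0.114, 95% interval -0.078 to 0.45, adjusted p = 0.567, edgeR), and 0.11 when libraries were scaled by their totals. Nr1h3, which encodes LXRα, the main hepatic form, went from 123 ± 13.4 to 105 ± 11.4 CPM (SD, n = 3), a log2 fold change of -0.22 (adjusted p = 0.573, edgeR), or -0.13 without FXR-WT replicate 1. The ratio of Nr1h2 to Nr1h3 per kilobase was 0.288, 0.349 and 0.358 in FXR-WT and 0.45, 0.411 and 0.447 in Y67F-FXR livers, with no overlap (exact permutation p = 0.10, adjusted 0.20 over 6 ratios).

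LXR targets went both ways. Of 12 tested, 2 were called lower and 1 higher, where 0.426% and 0.546% of all tested genes were. By sign 7 were fitted lower, and the list median was -0.32 on the log2 scale. Abcg5, a subunit of the canalicular sterol exporter, had 235, 178 and 177 CPM in FXR-WT and 89.1, 82.0 and 81.2 CPM in Y67F-FXR livers, and it fell to 0.428 of the FXR-WT level (log2 fold change -1.22, standard error 0.146, adjusted p = 0.0175, edgeR). Abcg8, which encodes the other subunit and is transcribed from the neighbouring start, fell alike, from 210.0 ± 32.4 to 90.3 ± 10.2 CPM (SD, n = 3, adjusted p = 0.0176, edgeR). Lpcat3, a phospholipid-remodelling enzyme, rose from 78.2 ± 6.37 to 125 ± 3.76 CPM (SD, n = 3, log2 fold change 0.68, adjusted p = 0.0429, edgeR), but it was not called when library totals replaced TMM factors, and it shares exon bases with Emg1. Without Y67F-FXR replicate 2 the list median was -0.078.

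Esrra, which encodes ERRα, an orphan receptor for mitochondrial genes (chromosome 19, 6985467 to 6996298, minus strand), had 43.4, 41.0 and 31.8 CPM in FXR-WT and 39.5, 58.0 and 50.7 CPM in Y67F-FXR livers. The groups overlapped through Y67F-FXR replicate 1, and the fitted log2 fold change was 0.35 (standard error 0.182, 95% interval -0.069 to 0.77, adjusted p = 0.467, edgeR). It was 0.23 without FXR-WT replicate 3 and 0.21 without Y67F-FXR replicate 2, and the gene shares exon bases with Trmt112. None of 14 ERRα targets was called, by edgeR or by DESeq2, and 1 had an unadjusted p under 0.05, beside 13.4% of all tested genes. The list median was 0.15, but 0.010 without Y67F-FXR replicate 2. The extremes were Mfn2, a mitochondrial fusion protein, at 0.34 (adjusted p = 0.259, edgeR) and Cycs, cytochrome c, at -0.22 (adjusted p = 0.424, edgeR). Ppargc1a, the coactivator through which ERRα and PPARα act on fasting, had 3.18, 3.93 and 6.65 CPM in FXR-WT and 10.4, 5.84 and 6.49 CPM in Y67F-FXR livers. The fitted log2 value of 0.72 did not pass (adjusted p = 0.397, edgeR), and the groups overlapped. It was 0.42 without Y67F-FXR replicate 1 and 1.09 without FXR-WT replicate 3.

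Thrb, which encodes TRβ, the thyroid hormone receptor of hepatocytes (chromosome 14, 18493474 to 18870602, plus strand), had 13.4, 15.2 and 20.3 CPM in FXR-WT and 16.3, 8.89 and 13.3 CPM in Y67F-FXR livers. The log2 fold change was -0.34 (standard error 0.247, 95% interval -0.91 to 0.23, adjusted p = 0.638, edgeR), and -0.37 with length offsets. With 1 liver left out it ranged from -0.55, without Y67F-FXR replicate 1, to -0.15, without Y67F-FXR replicate 2 or FXR-WT replicate 3. Against Thra, the other thyroid hormone receptor gene, the ratio per kilobase was 0.709, 0.616 and 0.801 in FXR-WT and 0.523, 0.436 and 0.537 in Y67F-FXR livers. Each mutant liver was below each FXR-WT liver (log2 difference -0.50, exact permutation p = 0.10, adjusted 0.20 over 6 ratios). Of 10 thyroid hormone targets 0 were called. At an unadjusted p under 0.05, 2 were higher and 1 lower, beside 6.75% and 6.67% of all tested genes. The list median was 0.25, ranging from 0.15 without Y67F-FXR replicate 1 to 0.40 without FXR-WT replicate 2. Cpt1a, the entry enzyme of mitochondrial fatty acid oxidation, stood on this list and on that of PPARα. Pck1, the first committed enzyme of gluconeogenesis, was the highest at 1.09, from 1932 ± 616 to 4120 ± 588 CPM (SD, n = 3), with an adjusted p of 0.0872 (edgeR), and it was called by DESeq2, by the likelihood ratio test and with length offsets (adjusted p = 0.045, edgeR). Bcl3 was the lowest at -0.51 (adjusted p = 0.253, edgeR).

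Rora, which encodes RORα, an activator of clock genes (chromosome 9, 68501609 to 69226835, plus strand), had only 18, 18 and 51 reads in FXR-WT and 58, 19 and 28 reads in Y67F-FXR livers. These correspond to 0.880, 0.873 and 2.20 CPM and to 2.82, 1.04 and 1.34 CPM. The 95% interval of its log2 fold change of 0.38 ran from -0.77 to 1.54 (standard error 0.501, adjusted p = 0.822, edgeR), an interval that held differences past 1.5-fold in both directions. The coefficient of variation was 58.1% in FXR-WT and 55.1% in Y67F-FXR livers, and the value turned to -0.16 without Y67F-FXR replicate 1.

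Of 11 tested ROR targets, 2 were called higher and 1 lower, where 0.546% and 0.426% of all tested genes were. The list median was 0.52 on the log2 scale. Cyp8b1, the bile acid enzyme required for cholic acid, had 452, 810.4 and 619.9 CPM in FXR-WT and 1545, 1827 and 1576 CPM in Y67F-FXR livers, a 2.63-fold rise (log2 fold change 1.39, standard error 0.213, adjusted p = 0.0333, edgeR). It is also repressed through FXR and SHP. Elovl3, a fatty acid elongase with a daily rhythm, rose 2.99-fold, from 34.6 ± 11.8 to 103 ± 3.96 CPM (SD, n = 3, adjusted p = 0.0336, edgeR), and shares exon bases with Pitx3. Avpr1a, a vasopressin receptor, had 22.3, 15.7 and 17.6 CPM in FXR-WT and 8.17, 5.84 and 8.59 CPM in Y67F-FXR livers and fell to 0.407 of the FXR-WT level (adjusted p = 0.0345, edgeR).

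Ncor1, the corepressor (chromosome 11, 62129928 to 62270834, minus strand), had 40.7, 54.2 and 63.3 CPM in FXR-WT and 74.5, 48.1 and 51.6 CPM in Y67F-FXR livers. FXR-WT replicate 1 was the lowest and Y67F-FXR replicate 1 the highest, and the other 4 livers lay between them. The log2 fold change was 0.14 (standard error 0.217, 95% interval -0.36 to 0.64, adjusted p = 0.861, edgeR), and 0.10 with length offsets. It turned to -0.022 without FXR-WT replicate 1 and to -0.079 without Y67F-FXR replicate 1. Its model is the longest of the 10, at 11144 bp, and shares exon bases with Ttc19.

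Other components of the NCoR complex did not pass either. In log2 fold change Gps2 stood at -0.23 and Tbl1x at -0.18, and the value of Tbl1x turned to 0.073 without FXR-WT replicate 3 and to 0.070 without Y67F-FXR replicate 2. Tbl1xr1 stood at 0.19, but at 0.064 without FXR-WT replicate 1. Hdac3, the deacetylase of the complex, had 45.6, 42.4 and 39.2 CPM in FXR-WT and 46.1, 57.2 and 49.2 CPM in Y67F-FXR livers, without overlap, and a log2 fold change of 0.26 (adjusted p = 0.445, edgeR), or 0.16 without Y67F-FXR replicate 2. None of these 4 was called by edgeR or DESeq2, and 0 had an unadjusted p under 0.05.

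**Figure D4:**
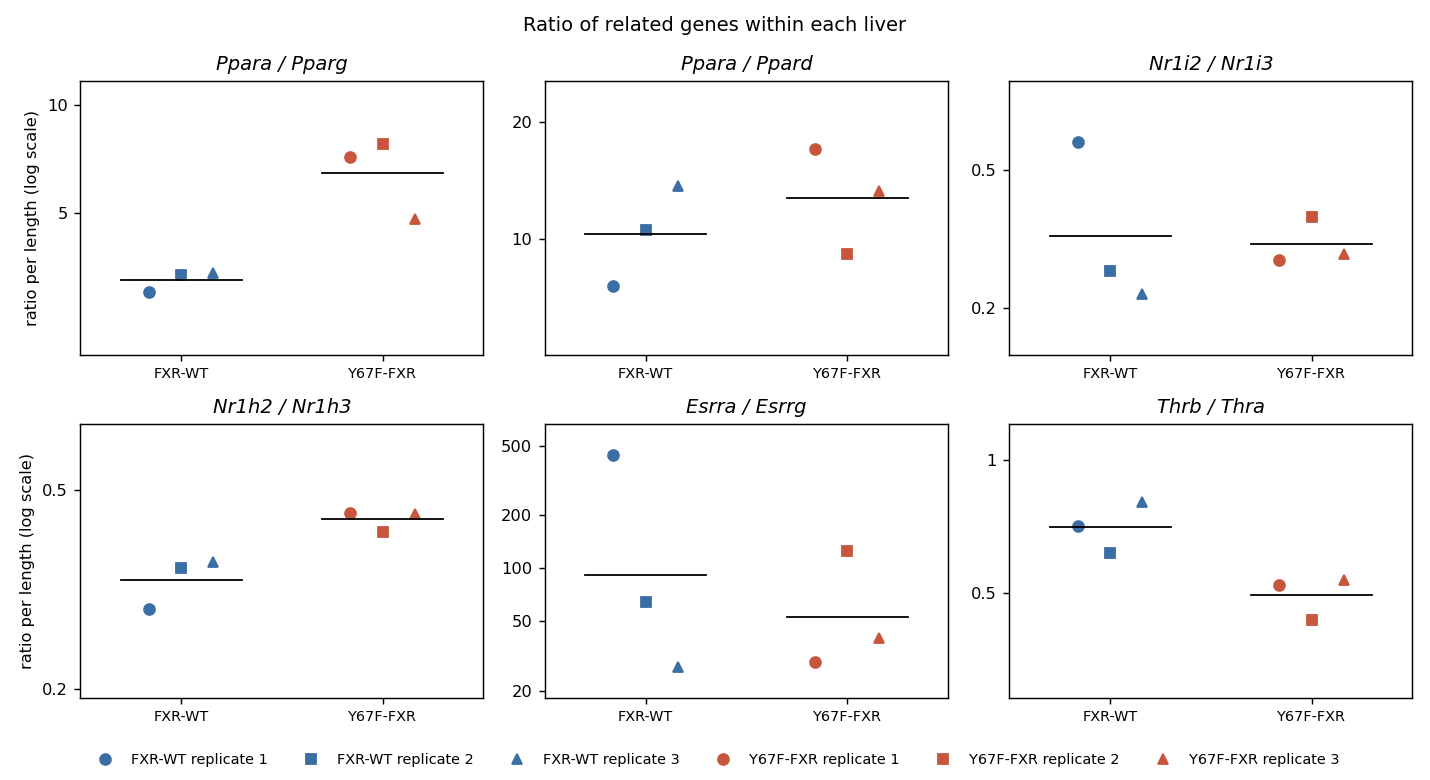
Ratio of each gene to a related gene within each liver, per kilobase of gene model (y axis, log scale with its own range in each panel), FXR-WT blue and Y67F-FXR red, with a line at the geometric mean of each group. Ppara to Pparg and Nr1h2 to Nr1h3 are higher, and Thrb to Thra lower, in every Y67F-FXR liver than in every FXR-WT liver, each at the smallest exact p of 0.10. The ratios are not corrected for the length trend between libraries.

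RXRs, the heterodimer partners of FXR and of most of these receptors, were also not called. Rxra, the main hepatic form, went from 548 ± 63.2 to 635 ± 55.1 CPM (SD, n = 3), a log2 fold change of 0.21 (adjusted p = 0.589, edgeR). Rxrb had 33.5, 34.5 and 31.7 CPM in FXR-WT and 39.0, 46.3 and 43.1 CPM in Y67F-FXR livers, without overlap, and a log2 fold change of 0.36 (adjusted p = 0.229, edgeR). Rxrg was at -0.22, but at -0.067 without Y67F-FXR replicate 1, and Rxra at 0.12 without FXR-WT replicate 1. Over the listed family, 36 of 48 nuclear receptor genes were tested and 0 were called by edgeR, beside 0.972% of all tested genes. An unadjusted p under 0.05, which 13.4% of all tested genes had, was found for 6 of the 36. DESeq2, which called 3.44% of all tested genes, called 1. That 1 was Nr0b2, the FXR target SHP, with 81.9, 63.7 and 59.5 CPM in FXR-WT and 6.42, 25.9 and 7.59 CPM in Y67F-FXR livers (log2 fold change -2.37, adjusted p = 0.0862, edgeR). No mutant liver reached the FXR-WT range, and Y67F-FXR replicate 2 was the highest of the 3. The edgeR fits also called Nr0b2 with length offsets (adjusted p = 0.0231), with no low count filter, by the likelihood ratio test and without Y67F-FXR replicate 2 (log2 fold change -3.30, adjusted p = 0.00265), and the adjusted p was 0.302 without Y67F-FXR replicate 3. Nr1d1, the clock repressor REV-ERBα that competes with RORα for its sites, was at 0.57 (adjusted p = 0.138, edgeR), and Esrrg, a relative of Esrra, had the highest fit among receptors with at least 1 CPM, 0.68 (adjusted p = 0.752, edgeR), but 0.17 without FXR-WT replicate 1 and 1.47 without FXR-WT replicate 3. Among 15 other coregulators tested, 0 were called by edgeR. An unadjusted p under 0.05, which 13.4% of all tested genes had, was found for 2. These were Lpin1, a PPARα coactivator and phosphatidate phosphatase, from 36.8 ± 16.1 to 80.9 ± 22.7 CPM (SD, n = 3, log2 fold change 1.138, adjusted p = 0.198, edgeR), which DESeq2 called, and Ppargc1b, at 0.67 (adjusted p = 0.225, edgeR). Carm1, an arginine methyltransferase, was the lowest, at -0.38, and ranged from -0.62 without FXR-WT replicate 1 to -0.15 without Y67F-FXR replicate 2.

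**Figure D5:**
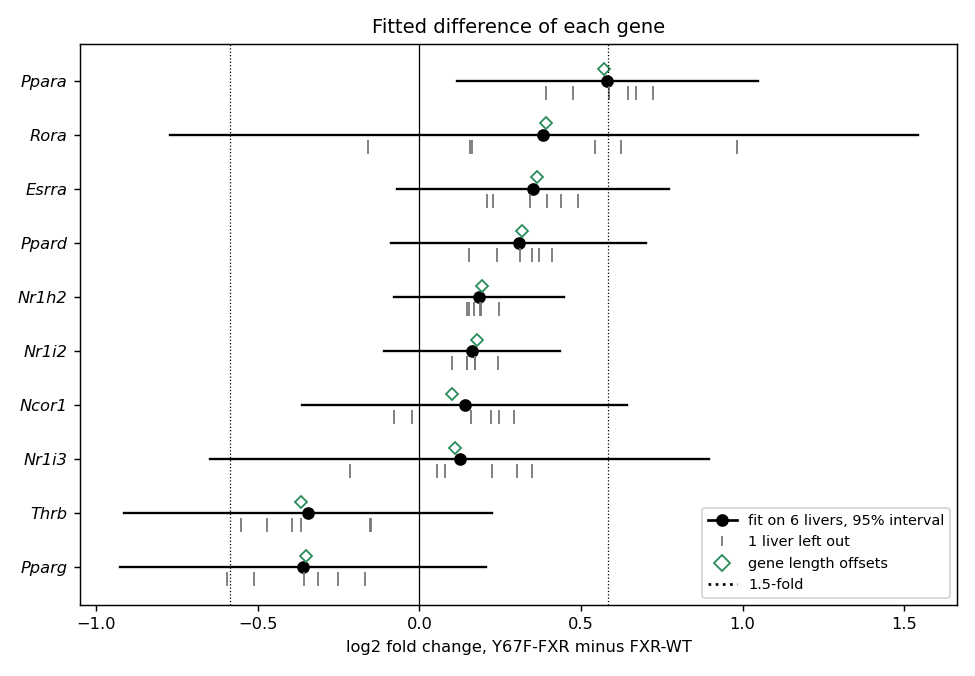
Fitted log2 fold change (x axis, Y67F-FXR minus FXR-WT) of the 10 genes with 95% intervals (black), the values with each liver left out (grey ticks), the values with gene length offsets (green diamonds) and the 1.5-fold lines (dotted). Only the interval of Ppara, 0.12 to 1.05, leaves out 0, and the values of Nr1i3, Rora and Ncor1 cross 0 when 1 liver is left out.

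With 1 liver left out, fewer of the 13 called targets were called, and so were fewer of all tested genes. Leaving out FXR-WT replicate 1, 2 or 3 left 8, 6 and 0 of the 13 called. The shares of all tested genes called were then 0.524%, 0.396% and 0.0715%, against 0.972% with all 6 livers. Leaving out Y67F-FXR replicate 1, 2 or 3 left 5, 5 and 1, beside 0.285%, 0.475% and 0.206% of all tested genes. DESeq2 called 3.44% of all tested genes, against 0.972%, and more of the same lists, with 11 PPARα, 3 PPARγ and 4 CAR targets higher, 1 LXR target higher and 3 lower, and 4 ROR targets higher and 1 lower. Plin2, Alas1, Lpcat3 and Avpr1a lost the call whichever liver was left out, while their log2 fold changes kept their direction. These ran from 0.73 to 0.93 for Plin2, 0.77 to 0.90 for Alas1, 0.61 to 0.72 for Lpcat3 and -1.40 to -1.15 for Avpr1a. Without FXR-WT replicate 3 the log2 fold change of Acot1 was 1.41 with an adjusted p of 0.0614 (edgeR), and that of Abcg5 -1.29 with the same adjusted p. FXR-WT replicate 1 had the lowest list median of the 6 livers for the targets of PPARα, PPARγ, PXR, CAR, TR and ROR. For PPARα targets that median was -0.41 in this liver, -0.17 and -0.11 in the other FXR-WT livers, and 0.22 to 0.27 in the Y67F-FXR livers, as deviations in log2 CPM from the mean of the 6. The list medians of PPARα, PPARγ, CAR and ROR targets did not overlap between the groups, and for PPARγ targets the highest FXR-WT liver, at 0.109, was close to the lowest Y67F-FXR liver, at 0.13.

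By pattern over the 6 livers, the genes most like Ppara were Tcp11l2, Pank1 and Slc17a5, with Pearson r of log2 CPM of 0.998, 0.998 and 0.996. Among 7166 genes of at least 10 CPM, 158 had an r with Ppara above 0.95. Those most like Esrra were Slc25a1, Mtch1 and Gltscr2, with r from 0.995 to 0.997, of 113 above 0.95. These values describe 6 points that share libraries and the length trend given above.

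Hepatocyte markers dominated every library. The summed level of 7 hepatocyte markers ran from 107790 to 123080 CPM in FXR-WT and from 106480 to 127540 CPM in Y67F-FXR livers. Stellate cell markers summed to 218 to 236 CPM in FXR-WT and 160.0 to 217 CPM in Y67F-FXR livers, a near tie at the edge, and 8 of 9 were fitted lower. Most of the sum was Dcn, named after its values were seen, whose groups overlapped, with 123 to 134 CPM in FXR-WT and 90.3 to 140.2 CPM in Y67F-FXR livers. Of these Lrat was at -1.15, Col1a1 at -0.77 and Acta2 at -1.95, each with an unadjusted p under 0.05. Acta2 had 9.88, 1.60 and 1.56 CPM in FXR-WT and 0.826, 1.58 and 0.955 CPM in Y67F-FXR livers, so that FXR-WT replicate 1 stood far above the rest and the groups overlapped. Kupffer cell markers summed to 151 to 219 CPM in FXR-WT and 123 to 332 CPM in Y67F-FXR livers, and 5 of 8 were fitted higher, Marco the most, at 1.63 (unadjusted p = 0.0556, edgeR), named after its value was seen. Marco had 13.6, 8.63 and 5.40 CPM in FXR-WT and 6.85, 62.2 and 16.5 CPM in Y67F-FXR livers. Y67F-FXR replicate 2 thus stood far above the rest, and the groups overlapped. Sinusoidal endothelial markers summed to 231 to 260.0 and 240.1 to 251 CPM, with 5 of 8 fitted higher and only Lyve1, at -0.89, at an unadjusted p under 0.05. Lyve1 had 20.8, 14.4 and 9.07 CPM in FXR-WT and 8.46, 7.36 and 8.02 CPM in Y67F-FXR livers. FXR-WT replicate 1 was the highest, and FXR-WT replicate 3 was close to the Y67F-FXR livers. Cholangiocyte markers summed to 46.2 to 71.2 and 54.1 to 60.6 CPM, and leukocyte markers to 37.7 to 52.1 and 28.7 to 50.2 CPM. Within the last list S100a8 was at -2.73 and S100a9 at -1.95, both also with an unadjusted p under 0.05. Of 5 erythrocyte markers only Alas2 was tested, and the globin genes were listed at 0. Hba-a1 shares exon bases with Hba-a2, and Hbb-b1 with Hbb-b2, and reads on several genes were not counted. The globin counts therefore cannot show whether globin RNA was present. No marker was called by edgeR's quasi-likelihood test with TMM factors. DESeq2, the likelihood ratio test and the fit with length offsets each called S100a8, S100a9 and Lrat, all lower, and the fit with library totals called S100a8. The part of stellate cells in the lower fitted Pparg value was not tested.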

How the data were processed

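Hepatic RNA-seq libraries, 3 from FXR-WT and 3 from Y67F-FXR livers, were grouped by the sample labels. The authors deposited raw read counts per gene, not normalized. Per the labels and file headers, reads (paired-end, 100 bp) were trimmed with Trimmomatic 0.36, aligned to mm9 with STAR 2.5.3a and counted with featureCounts 1.4.6-p4, unstranded, reads of a pair singly, without reads on several genes or places. A table of the authors' own comparison (fold changes and p-values) was not used. Counts were filtered (filterByExpr), scaled by TMM and tested with glmQLFit and glmQLFTest in edgeR 4.0.16 (R 4.3.3), with Benjamini-Hochberg adjustment, and called at adjusted p under 0.05 and fold over 1.5. Standard errors came from the F statistic. CPM are TMM-scaled, and a prior count of 2 was added for log2 CPM. Alternatives were DESeq2 1.42.0, the likelihood ratio test, other scaling factors and filters, length offsets (loess, span 0.3), a replicate block and each liver left out. Figures used Python 3.11.15 and matplotlib 3.10.9.

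The genes and lists were chosen with earlier results of these data known. A pair of listed genes is not reported here and enters no list count or ratio. Named from each list were called genes, the 2 with the smallest p, and the highest and lowest fit with a mean of at least 1 CPM. For Ppara and Esrra, the 3 most alike genes of at least 10 CPM were named. Replicate pairs of a group differed by more than counting noise (median chi-square per gene 2.23 to 8.10), so each liver was kept.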

Additional observations from a re-analysis of the deposited data

How the results depend on the processing

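Of 150 log2 fold changes of the 10 genes under the alternatives, 146 kept their direction and their side of the threshold, and 0 of the 10 genes were called under any. The exceptions came with 1 liver left out, where Nr1i3 ranged from -0.21 to 0.35, Rora from -0.16 to 0.98 and Ncor1 from -0.079 to 0.29 (-0.022 without FXR-WT replicate 1). Cyp3a13 then ranged from -0.13 to 0.058 and Tbl1x from -0.51 to 0.073 (0.070 without Y67F-FXR replicate 2). The cause was not tested.

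Genes called lower numbered 53, and 81 with no low count filter, 215 with DESeq2, 226 with the likelihood ratio test, 121 with length offsets, 401 at an unadjusted p and 7 to 33 with 1 liver left out. Genes called higher numbered 68, and 214 with DESeq2, 221 with the likelihood ratio test, 121 with length offsets, 382 at an unadjusted p and 2 to 35 with 1 liver left out. Same-numbered livers deviated with r of -0.52, -0.080 and 0.12, and differently numbered livers with r from -0.59 to 0.58. Deviations over 3 livers per group, which share the length trend, cannot show whether the numbers pair the samples. The replicate block left 6 lower and 2 higher calls and 0 among the listed genes, the 13 targets included. With library totals 43.3% of calls were higher, against 56.2%, and the median over all genes moved to -0.057.

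Of 195 list medians, 182 moved by less than the spread between replicates. The others, over each liver left out, ranged from 0.46 to 0.77 for CAR targets, 0.010 to 0.195 for ERRα targets, -0.065 to 0.14 for the NCoR complex, 0.16 to 1.33 for PPARγ targets, -0.47 to -0.078 for LXR targets, 0.41 to 0.55 for ROR targets (0.45 with library totals) and -0.078 to 0.042 for other nuclear receptors (-0.087 with library totals).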
